A study of Mus musculus with 9 samples.

Results

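Lars2 encodes the mitochondrial leucyl-tRNA synthetase, the nuclear-encoded enzyme that attaches leucine to its tRNA inside mitochondria. Each of the 6 H3R2me2a peak lists held 1 tall peak just inside the 3' end of the gene, with its summit at nearly the same base. No other peak of the region reached 8 fragments in any list. The region was Lars2 (mm10, chromosome 9, 123366927 to 123462675, 95.7 kb) with 50 kb either side. All peaks of the 6 lists that shared at least 1 bp with it were taken, 127 of 1548240 peaks in all. The region was chosen from these lists, so positions, heights, widths and sharing of its peaks are a description, with no test. Just inside the window edges lay a peak of 6 fragments at 48.2 kb before the gene and a peak of 4 fragments at 49.98 kb after it. Just outside lay peaks of 2 and 4 fragments at 50.9 and 50.2 kb.

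The libraries came from mouse bone marrow cells that the series' design text calls leukemia cells, grown in medium with serum, interleukin 3, interleukin 6 and stem cell factor. Chromatin immunoprecipitation with sequencing (ChIP-seq) used an antibody against H3R2me2a, the asymmetrically dimethylated form of arginine 2 on histone H3. Wild-type cells (WT), cells labelled Prmt6KO and cells labelled Igf2bp2KO gave 2 libraries each, and 1 input library per genotype was not analysed here. Strain, age, the deleted parts of the genes, the leukemia model and the origin of the replicates are not given in the sources used here. The spread between replicates may therefore be technical or between animals. The 2 WT libraries differed in their shares of peaks on chromosomes X and Y, given below, so they may not come from the same animal.

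PRMT6 is the methyltransferase that deposits H3R2me2a, and IGF2BP2 is a reader protein of m6A-modified RNA. H3R2me2a is known to counteract trimethylation of lysine 4 on the same histone tail, a mark of active promoters. It is known to be low at active promoters and has been described in gene bodies and toward the 3' ends of genes. LARS2 works in the mitochondrial translation system, where most amino acids have a synthetase, usually encoded by a gene separate from that of the cytosolic enzyme.

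The lists differed in length, from 1028 and 1261 peaks in Igf2bp2KO to 165304 and 134492 in WT and 814517 and 431638 in Prmt6KO. The background per library, the depth measure that the lists carry, was between 0.736 and 1.46 fragments. The lowest summit listed held 4 fragments in both WT libraries, 2 and 3 in the Prmt6KO libraries, and 8 and 7 in those of Igf2bp2KO. Of the peaks of WT replicate 1, 1.23% lay on chromosome X and 1.35% on Y, against 7.68% and 0.0297% in WT replicate 2. In the Prmt6KO libraries X held 6.26% and 7.82% and Y 0.0530% and 0.0582%. In those of Igf2bp2KO X held 4.77% and 7.69% and Y 0.0973% and 0.159%. Only WT replicate 1 had a larger share on Y than on X. Every comparison with both WT libraries carries this difference, and its part was not tested. WT results are therefore also given without replicate 1. In the gene Prmt6, WT libraries held 1 and 0 peaks and Prmt6KO libraries 4 and 0. In the gene Igf2bp2, WT libraries held 4 and 3 and Igf2bp2KO libraries 0 and 0, where peaks were sparse throughout. These peak lists check neither the genotype labels nor the cell type, since they hold no expression values.

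The start of Lars2 was free of listed peaks. RefSeq's sequence of its promoter (GRCm38.p6, which is mm10, plus strand, chr9:123366677-123366976, 250 bases before to 50 after the start) is shown because the mark's known relation to lysine 4 trimethylation concerns promoters, with each CG dinucleotide in capitals.
Lars2 promoter: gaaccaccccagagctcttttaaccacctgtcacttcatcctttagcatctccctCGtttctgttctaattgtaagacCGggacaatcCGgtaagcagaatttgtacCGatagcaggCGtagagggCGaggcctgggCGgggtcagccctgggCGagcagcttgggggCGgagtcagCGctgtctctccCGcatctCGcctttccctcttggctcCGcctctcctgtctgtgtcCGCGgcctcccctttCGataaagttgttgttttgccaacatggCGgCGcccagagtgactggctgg
This window holds 18 CG dinucleotides and 58.3% G and C. Of the 32851 RefSeq promoter windows of the same length, 29.7% hold at least 18, and the median is 7. No peak of any of the 6 lists overlapped the window. How many of all promoter windows are free of peaks was not counted. The lists covered 1.02% and 1.08% of the region's bases in WT and 11.3% and 3.78% in Prmt6KO. The empty window is therefore not read as a trait particular to Lars2. The nearest peak lay 14.9 kb from it in WT replicate 1 and 12.8 kb in WT replicate 2, with 4 and 5 fragments at its summit. In Prmt6KO replicate 1 a peak of 3 fragments lay 197 bp after the window, and in Prmt6KO replicate 2 the nearest peak, with 5 fragments, lay 3.86 kb after it. In both Igf2bp2KO libraries the nearest peak was the tall one at the other end of the gene. Peaks below 8 fragments in replicate 1 and below 7 in replicate 2 did not occur anywhere in the Igf2bp2KO lists, so their empty promoter window says nothing about low signal there.

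**Figure D1:**
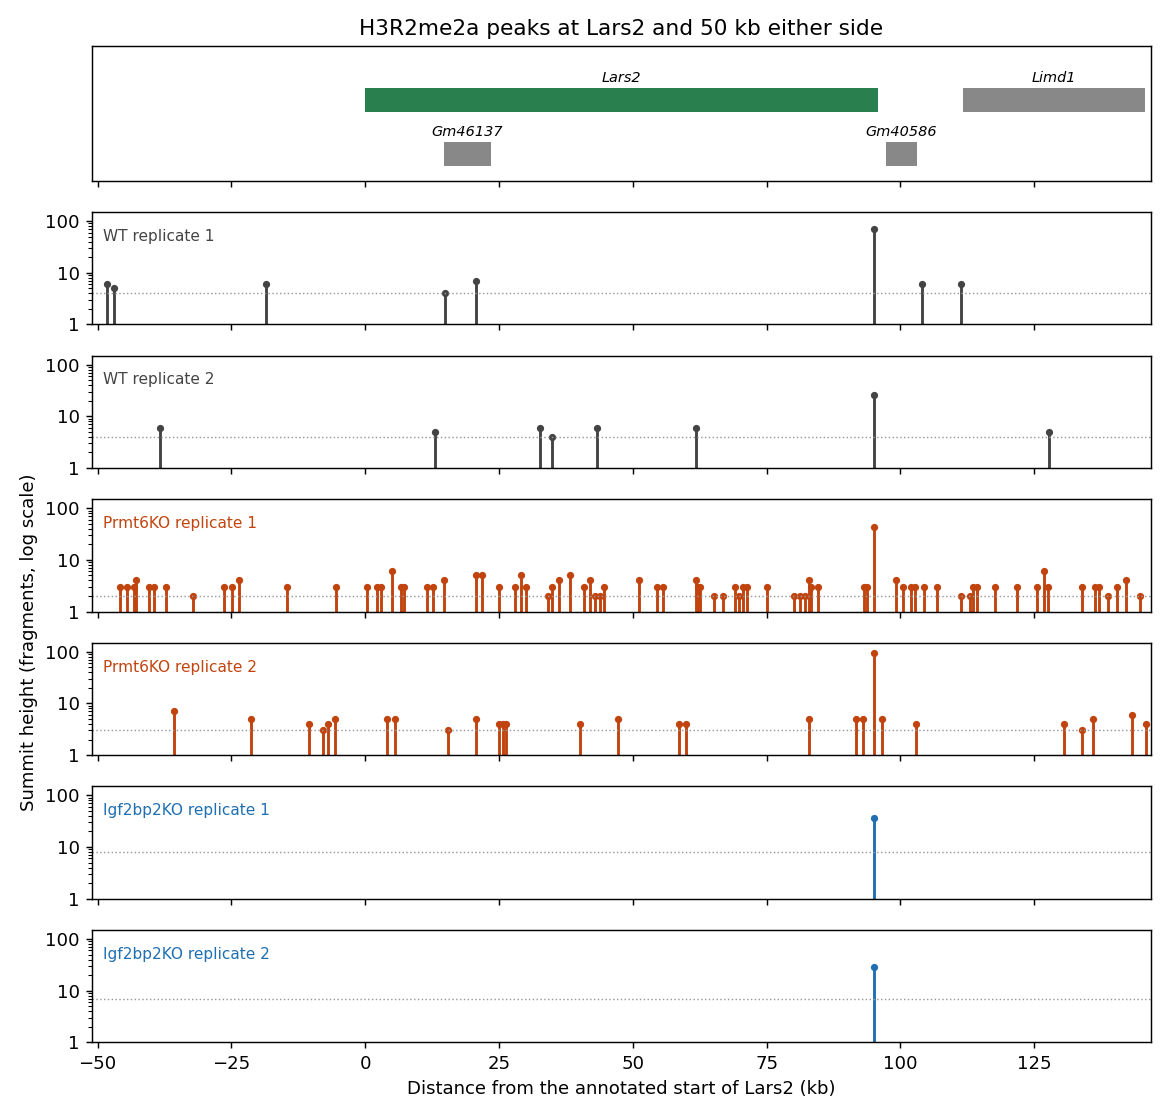
Summit height of every listed peak (log scale, in fragments) against distance from the annotated start of Lars2 in kb, 1 panel per library, with the annotated genes on top. Dotted lines mark the lowest summit in the entire list. Every panel has 1 tall peak near 95.1 kb, and the WT and Prmt6KO panels also have peaks of 7 fragments or fewer.

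The tall peak sat at the same place in every library. In WT it ran from 123461801 to 123462242 in replicate 1 and from 123461832 to 123462186 in replicate 2. In Prmt6KO it ran from 123461667 to 123462211 and from 123461728 to 123462260, and in Igf2bp2KO from 123461853 to 123462245 and from 123461895 to 123462160. All 6 peaks shared 266 bp (123461895 to 123462160), and together they covered 594 bp. The summits lay between 123461987 and 123462026, within 39 bp of each other. These summits were 649 to 688 bp before the annotated 3' end of Lars2. The gene table used has no exons, so exon, intron or 3' untranslated region was not assigned, and no genome sequence was used. Input signal at this place and copies of its sequence elsewhere in the genome were not analysed here, so the heights below are those of the H3R2me2a libraries alone. The next gene, the lncRNA Gm40586, starts at 123464208, after the end of every tall peak.

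**Figure D2:**
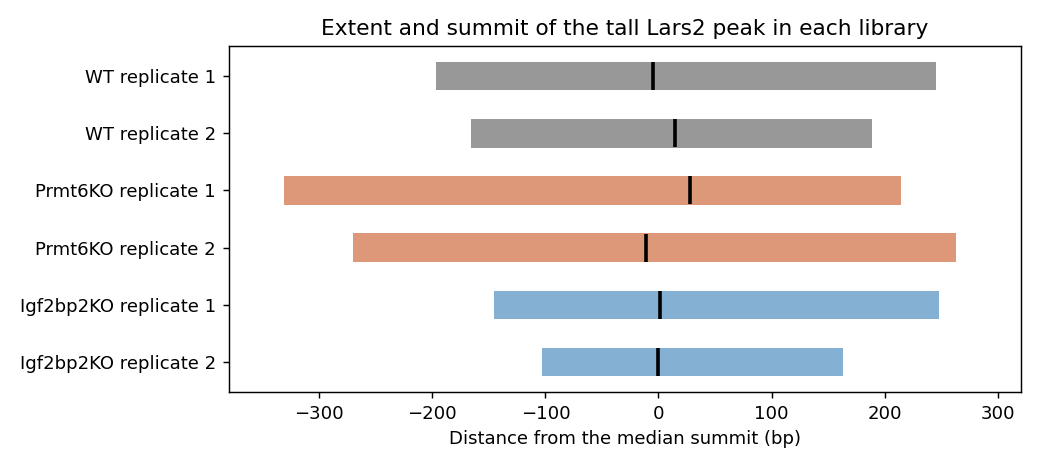
Extent (bars) and summit (black ticks) of the tall Lars2 peak in each library, in bp from the median summit. All 6 bars overlap, the ticks span 39 bp, and the Prmt6KO bars reach farthest to the left.

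Widths differed more than positions. The tall peak was 442 and 355 bp wide in WT, 545 and 533 bp with Prmt6 knocked out, and 393 and 266 bp with Igf2bp2 knocked out. Both Prmt6KO peaks were wider than both WT peaks, whereas the WT and Igf2bp2KO widths overlapped. The lowest listed summits, given above, differed in the same order (lowest in Prmt6KO, highest in Igf2bp2KO), and their part in the widths was not tested. Within its list the tall peak was wider than 93.9% and 84.6% of peaks in WT, 95.4% and 96.3% in the Prmt6KO libraries, and 63.9% and 41.2% in the Igf2bp2KO libraries.

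The height of the tall peak was 70 fragments in WT replicate 1 and 26 in WT replicate 2. It was 43 and 95 fragments in the Prmt6KO libraries, and 37 and 29 in those of Igf2bp2KO. In fragments the genotypes overlapped, since the WT values enclosed 1 Prmt6KO value and both Igf2bp2KO values. Exact Poisson intervals of 95% ran from 54.6 to 88.4 fragments in WT replicate 1 and from 17.0 to 38.1 in WT replicate 2. The intervals of the Prmt6KO libraries, 31.1 to 57.9 and 76.9 to 116.1, did not meet either. Such intervals cover counting error only, and PCR copies of a fragment are not independent molecules.

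Dividing by each library's background changed the order. The tall peak stood at 47.9 and 18.1 times the background in WT, 58.4 and 78.6 times with Prmt6 knocked out, and 25.5 and 21.7 times with Igf2bp2 knocked out. On this scale both Prmt6KO libraries were above both WT libraries, and both Igf2bp2KO libraries lay between the WT libraries. From high to low the order was Prmt6KO replicate 2, Prmt6KO replicate 1, WT replicate 1, Igf2bp2KO replicate 1, Igf2bp2KO replicate 2 and WT replicate 2. The counting intervals of neighbours in this order overlapped except between WT replicate 1 (37.3 to 60.5) and Igf2bp2KO replicate 1 (17.9 to 35.1). The group means were 33.0 ± 21.1 in WT, 68.5 ± 14.3 in the Prmt6KO libraries, and 23.6 ± 2.65 in the Igf2bp2KO libraries (SD, n = 2).

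Against WT the log2 difference of these means was 1.05 for Prmt6KO and -0.48 for Igf2bp2KO. Both comparisons use the same WT libraries, whose values differed 2.65-fold. Without WT replicate 1 the differences were 1.92 and 0.39, so the Igf2bp2KO value turned, and without WT replicate 2 they were 0.52 and -1.02. In fragments, with no division by the background, the Prmt6KO difference was 0.52, while the background was 0.736 fragments in Prmt6KO replicate 1 and between 1.21 and 1.46 in the other libraries. The spread between replicates (the SDs of the log2 values of both groups, combined as the root of their summed squares) was 1.04 for Prmt6KO and WT and 1.01 for Igf2bp2KO and WT. The Prmt6KO difference was about as large as this spread, and the Igf2bp2KO difference was smaller. The tall peak itself was listed in both libraries labelled Prmt6KO, the genotype labelled as lacking the enzyme.

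**Figure D3:**
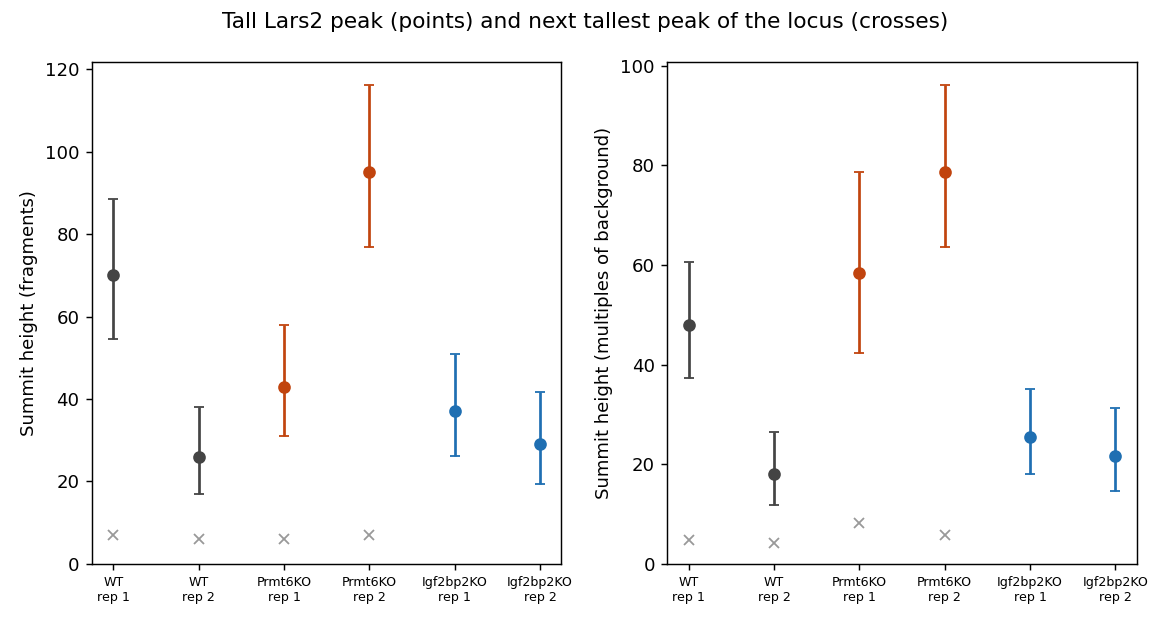
Height of the tall Lars2 peak in each library, in fragments (left) and in multiples of the library background (right), with 95% Poisson intervals for counting error. Grey crosses mark the next tallest peak of the region, 6 or 7 fragments high in WT and Prmt6KO and not listed in Igf2bp2KO.

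In WT and Prmt6KO few peaks of the lists were taller. By fragments the tall peak ranked 21 of 165304 and 36 of 134492 in the WT lists, 22 of 814517 and 17 of 431638 in Prmt6KO, and 37 of 1028 and 44 of 1261 in Igf2bp2KO. On chromosome 9 it ranked 3 of 7293 and 3 of 5006 in WT and 4 of 39229 and 3 of 18538 in Prmt6KO. The short Igf2bp2KO lists held 7 and 4 peaks on this chromosome, where it ranked 3 and 4, the last of them in replicate 2. Its -log10 q, the authors' value, was 86.3 and 20.1 in WT, 56.0 and 138.0 in the Prmt6KO libraries, and 7.66 and 4.87 in those of Igf2bp2KO. The Igf2bp2KO values rest on pileups scaled to 0.277 and 0.302 per fragment. They therefore cannot be set beside those of WT and Prmt6KO as a measure of height. It was the single peak of the region with a q of 0.05 or below in each of the 6 lists.

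Among 21631 protein-coding genes, 1.15% had a peak of at least 6 times the background in both WT libraries, 4.72% in both Prmt6KO libraries, 0.319% in both Igf2bp2KO libraries and 0.264% in all 6. Lars2 was among the 57 genes of this last set. By its tallest peak Lars2 ranked between 4 and 9 of all genes in each library.

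The remaining peaks of the region were low. WT replicate 1 listed 8 peaks in the region, 3 of them in Lars2, and WT replicate 2 listed 8 with 6 in Lars2. Prmt6KO listed 81 and 28, with 46 and 15 in the gene, and Igf2bp2KO listed the tall peak alone. The mean density of each list gives 12.1 and 9.96 peaks for a region of this length in WT, 60.4 and 32.0 with Prmt6 knocked out, and 0.0715 and 0.0908 with Igf2bp2 knocked out. The 1 Mb on either side of the region gives 14.1 and 9.98 in WT and 60.1 and 27.8 in Prmt6KO. Apart from the tall peak, the WT summits held 4 to 7 fragments. Of the 81 peaks in Prmt6KO replicate 1, 64 held 2 or 3 fragments, below the lowest summit that the WT lists contain.

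The log2 difference in listed peaks between Prmt6KO and WT was 2.77 for the region and 2.76 for the gene, and between Igf2bp2KO and WT -3.00 and -2.17. These differences are not corrected for the length of the lists, and the peak numbers that list density alone gives are stated above. At a summit of at least 8 fragments, or at a q of 0.05 or below, every library held exactly 1 peak and these differences were 0. At 6 times the background Prmt6KO replicate 1 kept 7 peaks in the region, 6 of them in Lars2, and every other library kept 1. The Prmt6KO differences were then 2.00 for the region and 1.81 for the gene. This threshold follows the background, which was 0.736 fragments in Prmt6KO replicate 1 and 1.46 and 1.44 in WT. Apart from the tall peak, the peaks kept in Prmt6KO replicate 1 held 5 or 6 fragments. WT peaks of 6 and 7 fragments did not pass.

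Sharing beyond the tall peak was rare. The 127 peaks merged into 109 regions, of which 96 came from 1 library, 11 from 2, 1 from 3 and 1, the tall peak, from all 6. Of the 8 peaks in WT replicate 1, 1 overlapped a peak of WT replicate 2 (6.06% of that list's peaks did so genome-wide), and 1 of 8 the other way (7.34% genome-wide). In both cases this was the tall peak.

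Of the 81 peaks in Prmt6KO replicate 1, 7 overlapped a replicate 2 peak (11.5% genome-wide), and 7 of the 28 in replicate 2 overlapped a replicate 1 peak (21.6% genome-wide). The 1 Igf2bp2KO peak was shared both ways (56.2% and 43.7% genome-wide). Of the WT peaks, 3 of 8 in replicate 1 and 6 of 8 in replicate 2 overlapped a peak of either Prmt6KO list, where 32.0% and 29.5% did so genome-wide. The long Prmt6KO replicate 1 list covered 11.3% of the region's bases and the replicate 2 list 3.78%, against 1.02% and 1.08% in the WT lists.

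The region found in 3 libraries lay 20.7 to 20.8 kb into Lars2, where the lncRNA gene Gm46137 (123381659 to 123390477) is also annotated. It held a peak of 7 fragments in WT replicate 1 (123387661 to 123387871) and peaks of 5 fragments in each Prmt6KO library (123387127 to 123387980 and 123387551 to 123387894). No list had a q of 0.05 or below there, and the Igf2bp2KO lists, whose lowest summits anywhere held 8 and 7 fragments, had no peak there.

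The neighbouring protein-coding gene Limd1, which encodes a LIM domain protein and starts at 123478661, showed low peaks only. Its part inside the window held 0 and 1 peaks in WT, 15 and 5 in Prmt6KO and 0 in both Igf2bp2KO libraries, with summits of at most 6 fragments. The lncRNA Gm40586 held 0 peaks in both WT libraries and 4 and 1 in Prmt6KO, with at most 4 fragments.

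Other genes for charging tRNAs had no peak of this height. The mitochondrial list had 20 genes (synthetases and the subunits of the glutamyl-tRNA amidotransferase) and the cytosolic list 20 synthetase genes, all of them in the gene table. A listed peak in both libraries was present in 7 of the other 19 mitochondrial genes and 9 of 20 cytosolic genes in WT (36.6% of all genes), in 15 and 19 in Prmt6KO (67.3% of all genes), and in 0 of either list in Igf2bp2KO (0.328% of all genes). These shares grow with gene length, which was not matched.

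At 6 times the background in both libraries, WT had Fars2, the mitochondrial phenylalanyl-tRNA synthetase gene, with 6.16 and 6.26 times. The same threshold in Prmt6KO was passed by Fars2 with 9.50 and 6.62 times and by Dars, the cytosolic aspartyl-tRNA synthetase gene, with 8.15 and 6.62 times. Fars2 is 420.2 kb long and held 20 and 30 peaks in WT. Nars2 also passed it in WT replicate 1, with 6.16 times. In Prmt6KO replicate 1, the list with the lowest background, 18 further genes passed at 6.79 to 9.50 times, which was 5 to 7 fragments. With Fars2 and Dars this made 20 of the 39 genes in that library, against 38.8% of all genes, and these shares too grow with gene length. In Prmt6KO replicate 2 it was 2 of 39 (5.54% of all genes), in the WT libraries 2 and 1 (5.43% and 2.70%), and in both Igf2bp2KO libraries 0 (0.398% and 0.495%). Among the 18 in Prmt6KO replicate 1 were Nars2 and Wars2, the mitochondrial asparaginyl- and tryptophanyl-tRNA synthetase genes, and Vars and Yars, the cytosolic valyl- and tyrosyl-tRNA synthetase genes. Lars, the cytosolic leucyl-tRNA synthetase gene and nearest counterpart of Lars2, reached 3.42 times in WT replicate 1, had no peak in WT replicate 2, reached 6.79 and 4.96 times in Prmt6KO, and had none in Igf2bp2KO.

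**Figure D4:**
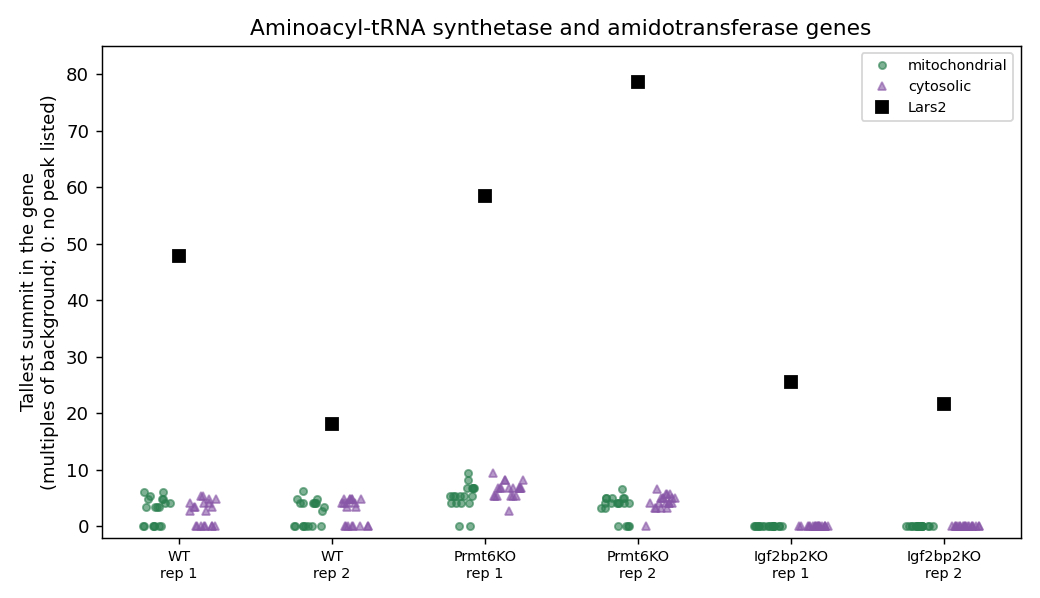
Tallest peak inside each gene, in multiples of the library background, for Lars2 (black squares), 19 other mitochondrial genes (circles) and 20 cytosolic genes (triangles) in each library. Lars2 stands at 18.1 to 78.6 times, and no other gene of the lists exceeds 9.50 times.

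The genes with the most similar profile were sought among the 68 with a listed peak in all 6 lists, which represent 59 distinct sets of tallest peaks. Likeness was the Euclidean distance of the log2 multiples over the 6 libraries. These profiles share the libraries' depths and lists, and they were chosen for their likeness, so they are a description. Zc3h7a, a zinc finger gene for an RNA-binding protein on chromosome 16, was nearest at a distance of 0.60. Its tallest peak stood at 41.7 and 17.4 times the background in WT, 76.0 and 99.3 in the Prmt6KO libraries, and 28.9 and 24.0 in the Igf2bp2KO libraries.

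Next, at a distance of 1.10, came a peak in the overlapping genes Cmss1 and Filip1l on chromosome 16, with 32.9 and 16.7 times in WT, 81.5 and 81.9 in the Prmt6KO libraries, and 14.5 and 21.0 in those of Igf2bp2KO. At Lars2, Zc3h7a and this peak alike, WT replicate 2 was below WT replicate 1 and both Prmt6KO libraries were above both WT libraries.

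Farther off were Sfi1, a centrin-binding protein gene on chromosome 11 (1.70), Vps45, a vesicle trafficking gene (1.79), and Aida (2.08). Vps45 was the flattest of these and stood at 49.3 and 45.9 times in WT, 42.1 and 43.0 with Prmt6 knocked out, and 31.7 and 32.2 with Igf2bp2 knocked out. Aida stood at 69.1 and 34.8 times in WT, 82.8 and 67.0 in the Prmt6KO libraries, and 50.3 and 56.2 in those of Igf2bp2KO. WT replicate 2 was below WT replicate 1 at all 5 of these loci, and in 42 of the 59 distinct profiles.

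**Figure D5:**
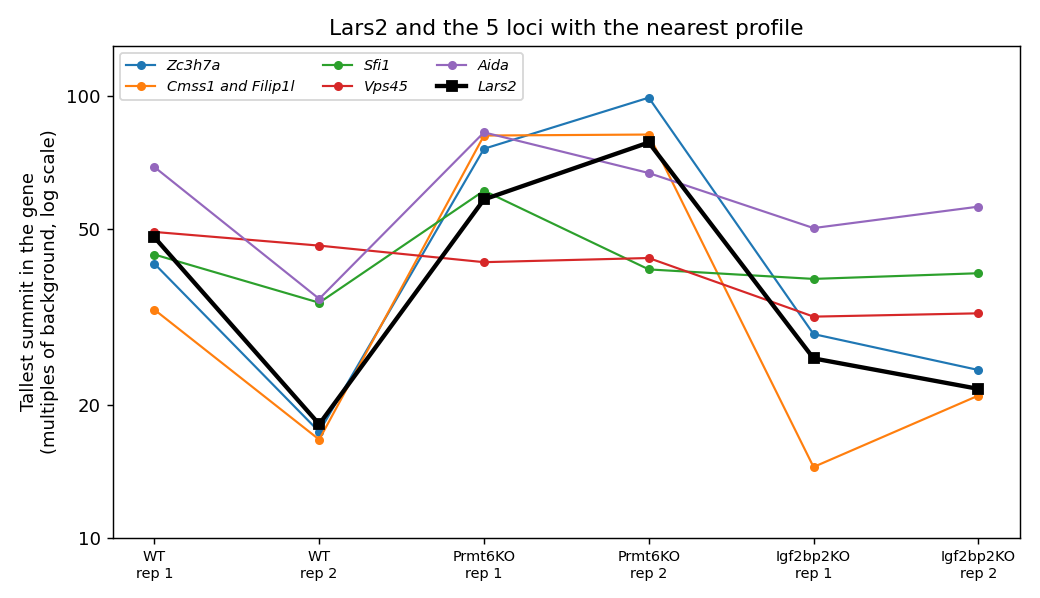
Tallest summit in the gene (log scale, multiples of the library background) in each library for Lars2 (black) and the 5 loci nearest to it, with lines only joining points of a gene. Lars2, Zc3h7a and the shared peak of Cmss1 and Filip1l are low in WT replicate 2 and high in Prmt6KO, while Vps45 stays between 31.7 and 49.3 times.

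Set beside the 59 distinct profiles, Lars2 varied widely. Its highest library was 4.35 times its lowest, with a median of 1.81 over the 59, and it ranked 5 from the top. The ratio between the WT libraries, 2.65, ranked 2, where the median was 1.27. The log2 difference of Prmt6KO from WT, 1.05, ranked 5, and the median was 0.31. This difference was positive in 53 of the 59 profiles and negative in 6, so its direction at Lars2 was the common one. For Igf2bp2KO the value of -0.48 ranked 58 of 59, and the median was -0.04. Each of the 59 profiles needed a listed peak in both Igf2bp2KO libraries, whose lowest listed summits held 8 and 7 fragments. Loci with lower Igf2bp2KO signal were thus left out beforehand, and a locus low in WT could not show a clear fall. The part of this filter in the Igf2bp2KO ranks and medians was not tested, so they are not read as particular to Lars2. The Prmt6KO and Igf2bp2KO ranks moved with the WT library used. Without WT replicate 1 the Prmt6KO value of 1.92 ranked 4 (median 0.45) and the Igf2bp2KO value of 0.39 ranked 18 (median 0.11). Without WT replicate 2 the values of 0.52 and -1.02 ranked 10 and 59. The ratio within Prmt6KO (1.35, median 1.31) and within Igf2bp2KO (1.17, median 1.17) was in the middle of the 59.

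Sfi1 reached similar heights with another layout. Its tallest peak stood at 43.8 and 34.1 times the background in WT, 61.1 and 40.5 in the Prmt6KO libraries, and 38.6 and 39.7 in the Igf2bp2KO libraries. That peak was between 6.44 and 15.95 kb wide, against 266 to 545 bp for the Lars2 peak. Sfi1 (chromosome 11, 3131850 to 3203347) held 41 and 38 peaks in WT, 43 and 39 in the Prmt6KO libraries and 32 and 27 in those of Igf2bp2KO, of which between 20 and 36 reached 8 fragments, where Lars2 had 1 in every library.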

How the data were processed

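H3R2me2a ChIP-seq peak lists of 6 libraries, 2 per genotype, were analysed, and groups were taken from the sample titles. Per the submitters' processing notes, the tools were MACS2 2.1.0, HISAT2, bedtools, bcl2fastq 2.17 and Trim Galore on mm10, with no settings or order given. Per the labels' protocols, fixation used 1% formaldehyde (10 min), and amplification of 20 cycles preceded selection of fragments of 250 to 450 bp. Each list holds 1 library's peaks. The deposited lists give each summit's fold enrichment (a ratio), the -log10 p-value and q-value there, and, per the file headers, the pileup, a coverage signal. These values are the authors' own.

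A straight-line fit of fold enrichment on pileup gave 1 constant background per list and the size of a pileup step. The step was 1 fragment in WT and Prmt6KO, and 0.277 and 0.302 per fragment in Igf2bp2KO, where pileups were divided by it. The largest misfit of a fold enrichment was 0.000596. Height is given in fragments and as a multiple of the background, which removes the list's scale but no local or input signal. Total reads per library are not given in the sources used here.

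Gene positions came from RefSeq (GRCm38.p6). Overlap meant at least 1 shared bp, and peaks of all lists that overlapped were merged. Genome-wide shares used chromosomes 1 to 19 and X, and expected peak numbers used the last peak end of each chromosome as its length. The region was chosen from these lists and no test was run. With 2 libraries against 2, a permutation test could not have passed a threshold. The region, the gene lists and the alternatives were chosen with earlier results of these data known. The ranks without 1 WT library were added after the data were seen. Named are Lars2, the genes overlapping the region, members of the pathway lists with a peak of at least 6 times the background (of those in Prmt6KO replicate 1 alone, some examples), Sfi1 and the 5 most similar loci. The overlap, merging and fitting code was tested on simulated data. Python 3.11.15, NumPy 2.4.6, pandas 2.3.3 and SciPy 1.17.1 were used.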

Additional observations from a re-analysis of the deposited data

How the results depend on the processing

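Of 100 recomputed values, 86 moved by less than the spread between replicates (counts: stayed within 1.5 times), 13 moved farther and 1 changed sign. Some of the 86 could not move. The difference of 1 knockout from WT uses no library of the other knockout, so leaving such a library out changes nothing. With another window the tallest summit stayed the same peak. The number 86 is thus no measure of stability. In each alternative run, exactly 1 region was found in all libraries used. Peaks with a q of 0.05 or below, or with at least 8 fragments, gave differences in peak number of 0 for the region and the gene in both knockouts, since each then leaves 1 peak per library. At 6 times the background the Igf2bp2KO differences were 0 too, while those of Prmt6KO were 2.00 and 1.81, with 7 peaks left in Prmt6KO replicate 1. Of those 7 peaks, 6 held 5 or 6 fragments, in the library with the lowest background. With 10 kb either side the Igf2bp2KO difference in the region was -2.32 and with 100 kb -3.86, because the WT count changes with the window. Leaving out 1 library gave 1.81 to 3.34 for the Prmt6KO difference in the region and -3.00 throughout for Igf2bp2KO. The latter was fixed, since both WT libraries listed 8 peaks and both Igf2bp2KO libraries 1. In the gene the values were 1.74 to 3.35 and -2.58 to -1.58. The height difference was 0.52 to 1.92 for Prmt6KO and -1.02 to 0.39 for Igf2bp2KO, where leaving out WT replicate 1 turned it to 0.39. As deposited fold enrichment the height differences were 0.79 and -1.41, the latter on pileups scaled down in Igf2bp2KO. Regions with WT peaks that both Prmt6KO libraries held numbered 1 to 2, with 2 when WT replicate 2 was left out. No paired analysis was possible because no result came from a test and nothing ties libraries of the same number together. The Igf2bp2KO lists show nothing below 8 and 7 fragments, while their background (1.45 and 1.33 fragments) was close to that of WT (1.46 and 1.44). Their peaks were listed on pileups scaled to 0.277 and 0.302 per fragment. The part of this scaling in the lowest summits and in the short lists was not tested.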
